A study of Mus musculus with 2 samples.

Results

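Keratin-associated protein (Krtap) genes were described in mouse epidermis lacking the vitamin D receptor gene Vdr in keratinocytes. The members were all probes whose symbol in the non-normalized table begins with Krtap and a digit, which gave 21 genes with 1 probe each, of 17888 genes and 25697 probes on the array, in 12 subfamilies by the number that follows. The KO sample was from C57BL6 mice with both Vdr alleles floxed (VDR fl/fl) and Cre recombinase driven by the keratin 14 promoter, and the CON sample was from VDR fl/fl littermates without Cre, both at postnatal day 5. The keratin 14 promoter is active in basal keratinocytes and in the outer root sheath of the follicle, so the deletion is aimed at these cells and their descendants and not at pigment or immune cells. Epidermis was separated from back skin with dispase, and RNA from 3 mice was combined for each genotype, which gave 1 pool and 1 bead array per genotype. A single pool carries no replicate spread, so the differences below have no error and no p-value.

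Keratin-associated proteins form the matrix that surrounds the keratin filaments of the hair shaft, and disulfide bonds between them and the hair keratins make the shaft rigid. They are small proteins made in the cortex and cuticle late in shaft formation, in sulfur-rich subfamilies that are rich in cysteine and in high glycine-tyrosine subfamilies. Their genes lie in clusters, and interfollicular epidermis is not known as a site where they are made. The vitamin D receptor is known for its part in the hair cycle, since mice without it lose their hair after the first coat.

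The symbols in the file are old, and the subfamily number of some members has since changed. RefSeq (assembly GRCm38.p6) names the file's Krtap16-4, Krtap16-5 and Krtap16-9 as Krtap19-4, Krtap19-3 and Krtap19-1, the file's Krtap16-8 as Krtap6-5 and the file's Krtap8-2 as Krtap19-5. The accession of the file's Krtap16-3 matched no gene in that table, where the symbol Krtap16-3 stands for a gene with another identifier, so it is given by the file's name and put in no composition class. Krtap9-1 was matched by symbol alone. The other 14 kept their names.

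The sequences before the start of 6 of these genes are shown because they were detected in both pools and come from 3 gene clusters. Each line gives the 100 bases before the annotated start, 5′ to 3′, from RefSeq on GRCm38.p6, with every TATAAA or TATATAA, the letters of the TATA box, in capitals.
Krtap16-4 (RefSeq Krtap19-4), chr16:88885090-88885189, minus strand: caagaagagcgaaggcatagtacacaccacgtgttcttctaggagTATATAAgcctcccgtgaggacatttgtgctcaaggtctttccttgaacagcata
Krtap16-9 (RefSeq Krtap19-1), chr16:88869411-88869510, minus strand: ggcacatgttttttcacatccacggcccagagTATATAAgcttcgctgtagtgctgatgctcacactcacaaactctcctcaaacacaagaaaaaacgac
Krtap16-8 (RefSeq Krtap6-5), chr16:89047900-89047999, minus strand: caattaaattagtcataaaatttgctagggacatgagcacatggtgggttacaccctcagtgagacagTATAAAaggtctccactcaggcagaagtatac
Krtap6-2, chr16:89420112-89420211, minus strand: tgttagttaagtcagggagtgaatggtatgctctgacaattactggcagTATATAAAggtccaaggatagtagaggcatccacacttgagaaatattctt
Krtap4-7, chr11:99644090-99644189, minus strand: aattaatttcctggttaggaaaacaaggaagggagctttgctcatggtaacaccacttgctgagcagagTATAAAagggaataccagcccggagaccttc
Krtap5-1, chr7:142297135-142297234, minus strand: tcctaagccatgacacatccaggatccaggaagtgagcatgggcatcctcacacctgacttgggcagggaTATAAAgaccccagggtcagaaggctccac
The first 2 lines hold TATATAA followed by g, and the next pair differ in having TATAAA alone in Krtap16-8 and the overlapping form TATATAAA in Krtap6-2. Over windows of 300 bases (250 before the start and 50 after it), 13 of the 18 members with a window in the RefSeq table held TATAAA on either strand, against 13.6% of 32851 windows of all genes. With TATATAA, which was added to the search after these sequences were read, the count was 18 of 18, against 15.1% of all windows. The form TATATAAG, which contains TATATAA, was found in 5 members (Krtap14, Krtap15, Krtap16-4, Krtap16-5 and Krtap16-9), all on chromosome 16, against 1.01% of all windows. It is present in the first 2 printed lines, and the 5 genes are neighbours in the same cluster. The count thus describes letters and tests nothing. The 13 members with TATAAA had no TATATAAG. They were those on chromosomes 7 and 11 and all the remaining members on chromosome 16, such as Krtap6-2 and Krtap16-8.

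Binding letters of regulators were also counted in the same windows. HOXC13, a homeobox factor known in mouse to act on keratin-associated protein genes, has the reported site TTAATNAA, TTAATNAG, TTAATNGA, TTAATNGG, TTTATNAA, TTTATNAG, TTTATNGA or TTTATNGG. These letters were found in 10 of 18 members on either strand and in 18.9% of all windows. Some of these forms can overlap the TATA letters, and matches clear of them were found in 9 members and in 5267 of the 32851 windows. The vitamin D receptor hexamers AGGTCA and AGTTCA were found in 7 of 18 members and in 27.7% of all windows. The paired vitamin D response element of the DR3 type was found in 0 of 18 members and in 0.0396% of all windows. A match is a description of letters, not a bound site, and signals of the members that carry one are given below with the rest.

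The arrays were alike in depth. In the KO pool 11422 probes (44.4%) and in the CON pool 11501 probes (44.8%) had a detection p-value under 0.01 against negative controls, the limit for calling a probe detected. The raw median signal was 158.5 in KO and 153.6 in CON. Of 3 probes for the Vdr transcript 2 read higher in KO, the brightest with raw signals of 2442.1 in KO and 1913.0 in CON, and the dimmest read lower, with 189.0 in KO and 193.0 in CON. Neither the deleted exons nor the positions of the Vdr probes are stated in the labels or files, so the probes check nothing and each direction rests on the labels. Keratinocyte markers were high in both pools, such as Krt14 at a raw signal of 33165.4 in KO and 30158.0 in CON. Over 6 interfollicular markers the raw signals summed to 148125.6 in KO and 147715.2 in CON. After normalization 2 of the 6, Krt14 among them, were higher in KO, and the median log2 change was -0.08. For each fold below the raw signals were background-corrected and quantile-normalized, the log2 change is KO minus CON, and a change was called at 1.5-fold or more.

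Every keratin-associated protein gene detected in both pools read higher in KO. There were 10 such genes, and their log2 changes had a median of 0.42 and ranged from 0.24 to 0.78. By the 1.5-fold rule 3 of the 10 rose and 0 fell, where among all 8276 genes detected in both pools 2.24% rose and 1.38% fell. Any higher value in KO was found for 50.4% of those genes, and their median log2 change was 0.00 with an SD across genes of 0.27. Among the 4242 genes whose mean signal lay in the range of the 10 members, 1.56% rose and the median log2 change was also 0.00. The other members were undetected in CON (Krtap21-1), in KO (Krtap5-5) or in both pools (9 genes). Over the 12 members detected in at least 1 pool 3 rose and 0 fell, where of all 8868 such genes 3.1% rose and 2.28% fell. In a bulk sample more cells of a type and more RNA per cell cannot be told apart, and this holds for each difference here.

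**Figure D1:**
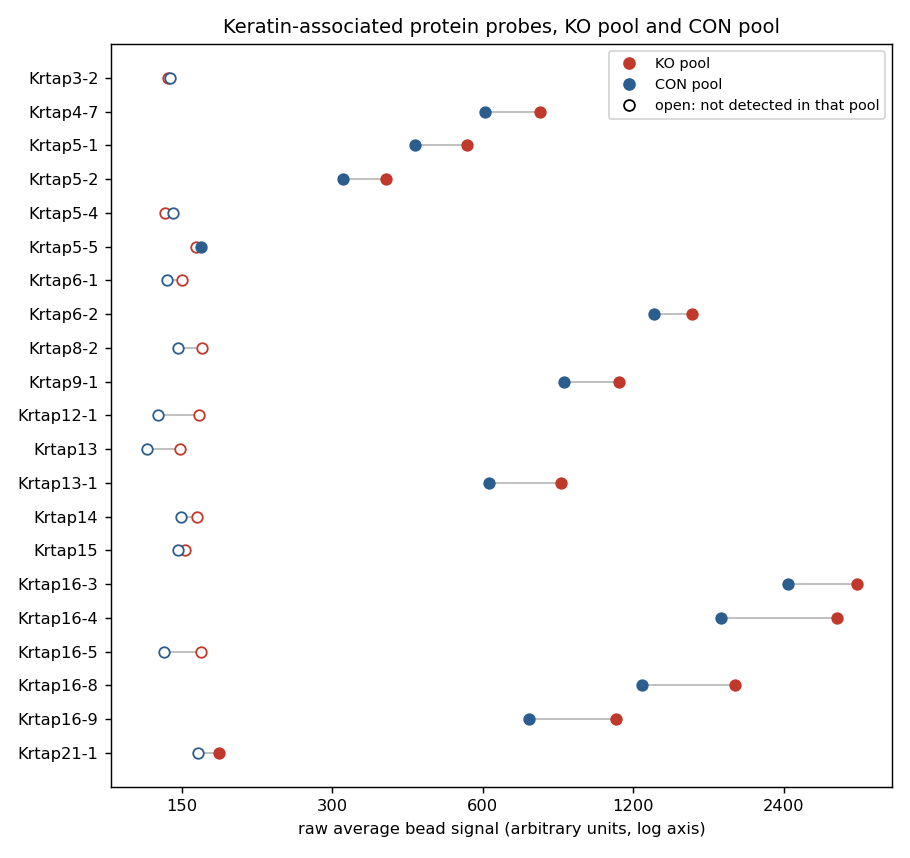
Raw average bead signal of the 21 keratin-associated protein probes (log axis) in the KO pool (red) and the CON pool (blue), ordered by subfamily number, with open circles where a probe was not detected in that pool. The 10 genes with filled circles in both colours all lie further right in KO, and the undetected probes lie between 127.7 and 164.7.

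Subfamily 16 of the file's naming held the 3 genes that rose, and it had 4 of its 5 members detected. Krtap16-4 (RefSeq Krtap19-4) encodes a high glycine-tyrosine protein and had a raw signal of 3058.6 in KO and 1795.2 in CON, which is 1.72-fold after normalization. Of all genes detected in both pools 0.79% had a larger log2 change. Krtap16-9 (RefSeq Krtap19-1), of the same class and cluster, had 1109.7 in KO and 741.5 in CON, a 1.56-fold rise. Krtap16-8 (RefSeq Krtap6-5), also a high glycine-tyrosine gene, had 1917.4 in KO and 1248.2 in CON and rose 1.54-fold.

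These 3 genes were bright in both pools, far above the level of undetected probes. Krtap16-3 was higher by less, with raw signals of 3360.0 in KO and 2451.9 in CON and a log2 change of 0.43, under the rule. The median log2 change over the 4 genes was 0.63. The fifth, Krtap16-5 (RefSeq Krtap19-3), was detected in neither pool, with 163.8 in KO and 138.3 in CON. In the authors' normalized table, whose lowest signal of 113.4 shows that background remains in it, Krtap16-4 rose 1.63-fold, while Krtap16-8 at a ratio of 1.46 and Krtap16-9 at 1.44 did not pass the rule. On that scale 1 of the 10 genes rose, against 0.544% of all genes detected in both pools, and all 10 ratios lay between 1.16 and 1.63.

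The remaining high glycine-tyrosine genes of the chromosome 16 cluster differed less or were not detected. Krtap6-2 had a raw signal of 1571.0 in KO and 1319.5 in CON, and its log2 change of 0.24 was the lowest of the 10 genes. Of all genes detected in both pools 15.5% had a change at least as large. Krtap21-1 had 177.8 in KO and 162.0 in CON, where its detection p-value was 0.0125, just outside the limit. The 2 values lie close together, and against the detection floor of the CON array Krtap21-1 was at least 1.22-fold higher on the background-corrected scale, with a ratio of 1.08 in the authors' values. Krtap6-1 and Krtap8-2 (RefSeq Krtap19-5) were not detected.

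The 5 sulfur-rich genes named in the file and detected in both pools were also higher in KO, none by 1.5-fold. Krtap13-1, a high-sulfur gene of the chromosome 16 cluster, had a raw signal of 859.0 in KO and 616.5 in CON, with a log2 change of 0.52. Krtap4-7, an ultra-high sulfur gene on chromosome 11, had 781.3 in KO and 605.5 in CON, with a log2 change of 0.40. Krtap9-1, of another ultra-high sulfur subfamily, had 1125.3 in KO and 872.3 in CON, with a log2 change of 0.38. These 3 genes of different subfamilies thus differed in the same direction by similar amounts, each under the rule.

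Subfamily 5, ultra-high sulfur genes known from the hair cuticle and clustered on chromosome 7, had 4 members with unlike values. Krtap5-1 had a raw signal of 557.3 in KO and 439.3 in CON (log2 change 0.39), and Krtap5-2 had 384.6 in KO and 315.6 in CON (log2 change 0.36). Krtap5-5 was the only detected member with a lower value in KO, at 160.2 in KO and 164.2 in CON, and it was detected in CON alone, with a bound of at least 1.01-fold lower in KO. Its value in KO had a detection p-value of 0.0451. Krtap5-4 was detected in neither pool, with 138.9 in KO and 144.4 in CON. The 2 genes detected in both pools were thus higher in KO, and the 2 at or near background were not.

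By composition class, the 4 high glycine-tyrosine genes detected in both pools had a median log2 change of 0.63 (range 0.24 to 0.78), and the 5 sulfur-rich genes 0.39 (range 0.36 to 0.52). The ranges overlap, with Krtap6-2 below every sulfur-rich gene of this set, and no difference between the classes was tested. The classes are those of the subfamily numbers in current naming, as textbook background, since no protein sequence was used here.

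Members that were not detected gave no direction. The 9 such genes, 1 from each of 9 subfamilies by the file's numbers, were Krtap3-2, Krtap5-4, Krtap6-1, Krtap8-2, Krtap12-1, Krtap13, Krtap14, Krtap15 and Krtap16-5. Their raw signals ranged from 138.9 to 164.7 in KO and from 127.7 to 149.8 in CON. The raw signal was higher in KO for 7 of the 9, and among all 13797 probes detected in neither pool it was higher in KO for 70.0%. By the file's numbers subfamilies 3, 8, 12, 14 and 15 had no detected member. RefSeq places both Krtap8-2 and Krtap16-5 in subfamily 19, which has detected members. Krtap12-1 and Krtap16-5 had log2 changes of 0.73 and 0.69 without the detection filter, but with raw signals of 162.3 and 163.8 in KO and 134.3 and 138.3 in CON these are differences near background.

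Further probes of the family carry other names in the file and were found through RefSeq identifiers, an addition made with the values already known. There were 11 of them, of which 9 were detected in both pools and 2 (Krtap4-2 and Krtap31-1) in neither. All 9 read higher in KO, with log2 changes between 0.105 and 1.42, and 4 of the 9 rose, beside the 2.24% of all genes given above. Krtap9-3, an ultra-high sulfur gene, had a raw signal of 394.9 in KO and 218.9 in CON and rose 2.67-fold, or 1.71-fold in the authors' values. Krtap26-1, a high-sulfur gene of the chromosome 16 cluster, had 605.9 in KO and 373.5 in CON and rose 1.84-fold. Subfamily 1, high-sulfur genes of the cortex, appears in this set alone.

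Both subfamily 1 genes rose. Krtap1-5 had a raw signal of 1086.1 in KO and 676.9 in CON (1.68-fold), and Krtap1-4 had 500.3 in KO and 349.2 in CON (1.59-fold). In the authors' values Krtap26-1 and Krtap1-5 both stayed above the rule, each at a ratio of 1.52, and Krtap1-4 at 1.34 did not. Krtap31-2, with 416.8 in KO and 307.7 in CON, lay just under the limit at a log2 change of 0.585.

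The rest of the added genes differed less. The subfamily 4 genes Krtap4-16, Krtap4-1 and Krtap4-13 had log2 changes of 0.45, 0.29 and 0.105, so that with Krtap4-7 none of the 4 detected genes of this subfamily rose. Krtap19-9b, a high glycine-tyrosine gene, had 4116.4 in KO and 3145.7 in CON, with a log2 change of 0.36. With these genes the sulfur-rich class spanned 0.105 to 1.42 over 12 genes (median 0.43) and the high glycine-tyrosine class 0.24 to 0.78 over 5 genes (median 0.63). Over all 32 probes 19 were detected in both pools, 7 of these rose and 0 fell. Of all 8276 genes detected in both pools 2.24% rose and 1.38% fell. In the authors' values 4 of the 19 rose, against 0.544% of all genes detected in both pools. By chromosome, the 8 genes detected on chromosome 11 had a median log2 change of 0.52, the 7 on chromosome 16 of 0.63 and the pair on chromosome 7 of 0.38, so the higher values were found in 3 clusters. Members of a subfamily can be near-identical in sequence, and how far probes cross-react was not measured here.

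**Figure D2:**
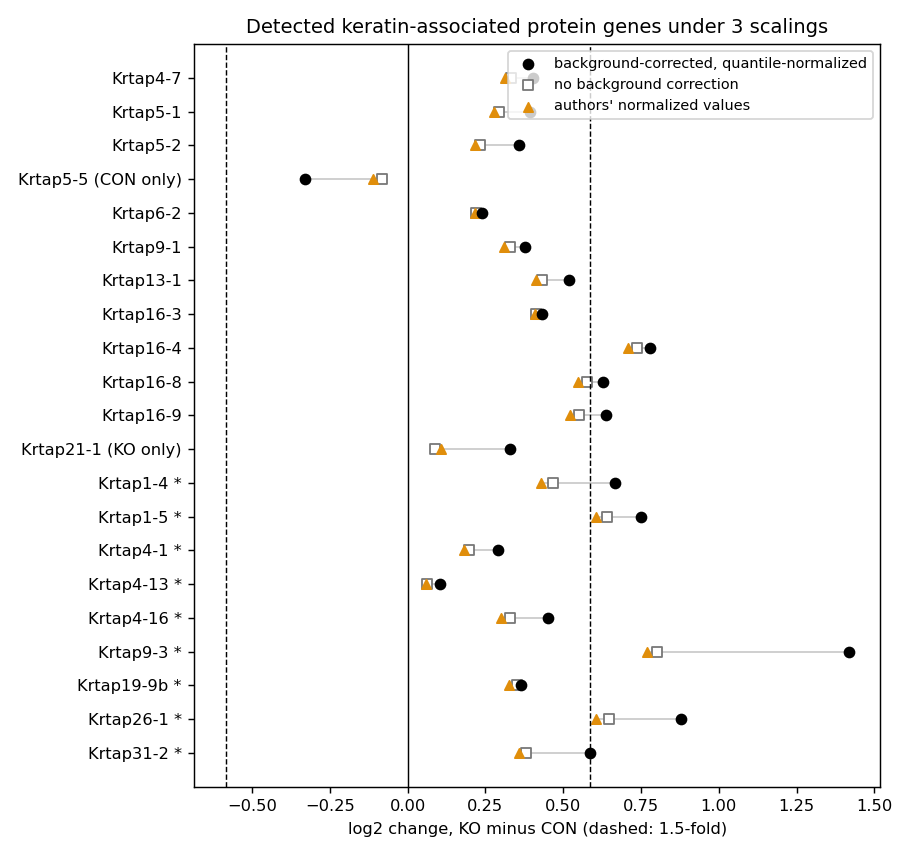
Log2 change (KO minus CON) of the 21 keratin-associated protein genes detected in at least 1 pool, on 3 scales: background-corrected and quantile-normalized (black circles), without background correction (open squares) and in the authors' normalized values (orange triangles), with 1.5-fold as dashed lines. Names with an asterisk came through RefSeq, and Krtap5-5 alone lies left of 0 on all 3 scales.

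The size of the change in dim genes depended on the background correction. Krtap9-3 moved most, with a log2 change of 1.42 on the corrected scale and 0.77 in the authors' values, while the bright Krtap16-3 had 0.43 and 0.41. No keratin-associated protein gene detected in both pools was lower in KO on any of these scales.

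**Figure D3:**
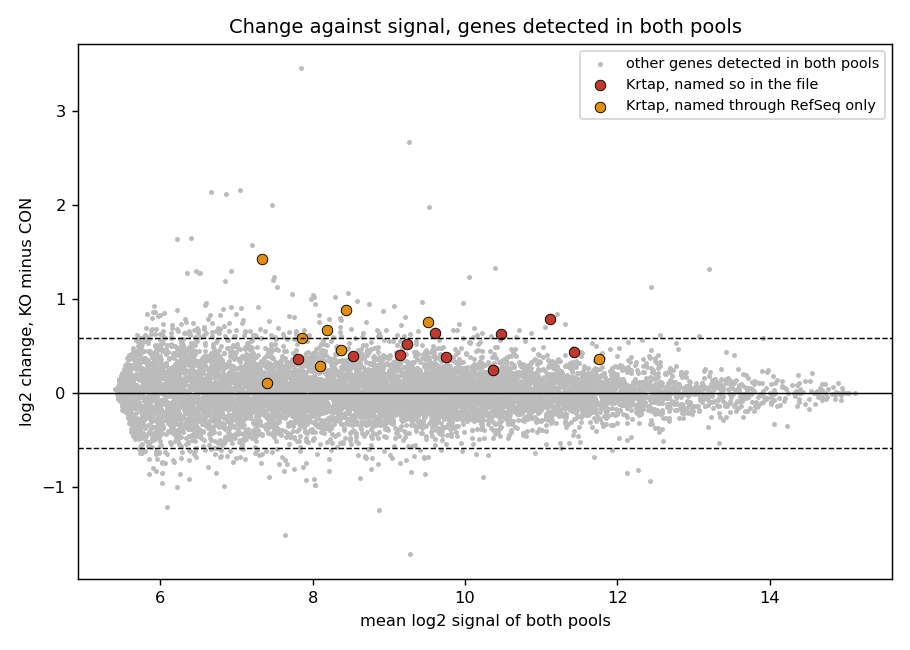
Log2 change (KO minus CON) against the mean log2 signal of both pools for 8276 genes detected in both, with keratin-associated protein genes named in the file in red, those named through RefSeq in orange and 1.5-fold as dashed lines. The coloured points all lie above 0, and none is among the dimmest or the brightest genes. The other genes lie on both sides of 0. Of all 8276 genes 185 rose and 114 fell by the rule.

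Hair shaft genes outside the family had values on both sides of 0. Of 15 listed hair shaft keratins, whose filaments the keratin-associated proteins bind, 11 were measured. Krt33b, Krt81, Krt83 and Krt85 were not on the array. The summed raw signal of the 11 was 17961.5 in KO and 14004.6 in CON. Of the 11, 9 were detected in both pools, and 4 of the 9 were higher in KO, 1 rose and 1 fell. The median log2 change of the 9 was -0.01. Krt86 had a raw signal of 2873.7 in KO and 1766.4 in CON and rose 1.63-fold, and Krt35, an early keratin of the shaft, had 604.1 in KO and 952.4 in CON and fell 1.79-fold. Krt34, with a log2 change of 0.56, and Krt33a, with 0.30, were higher by less than the rule, and Krt31 had -0.02. The remaining detected genes Krt84, Krt36, Krt32 and Krt82 had log2 changes of -0.43, -0.23, -0.01 and 0.035. The keratin-associated protein genes detected in both pools had no value below 0, and the difference between these groups was not tested.

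No inner root sheath gene or regulator of the shaft passed the rule. Of 10 listed inner root sheath genes 8 were measured, and Krt28 and Tchh were not on the array. Of the 8, 6 were detected in both pools, 3 of them higher in KO, with a median log2 change of 0.02. Krt26 had the highest, at 0.47. Of 10 measured regulators 6 were detected in both pools, all 6 with a negative log2 change (median -0.16) and 0 called. Hoxc13 had a raw signal of 217.3 in KO and 211.2 in CON, with a log2 change of -0.05. The transcription factor genes Foxn1, Lef1 and Prdm1 and the ligand gene Bmp2 were not detected.

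**Figure D4:**
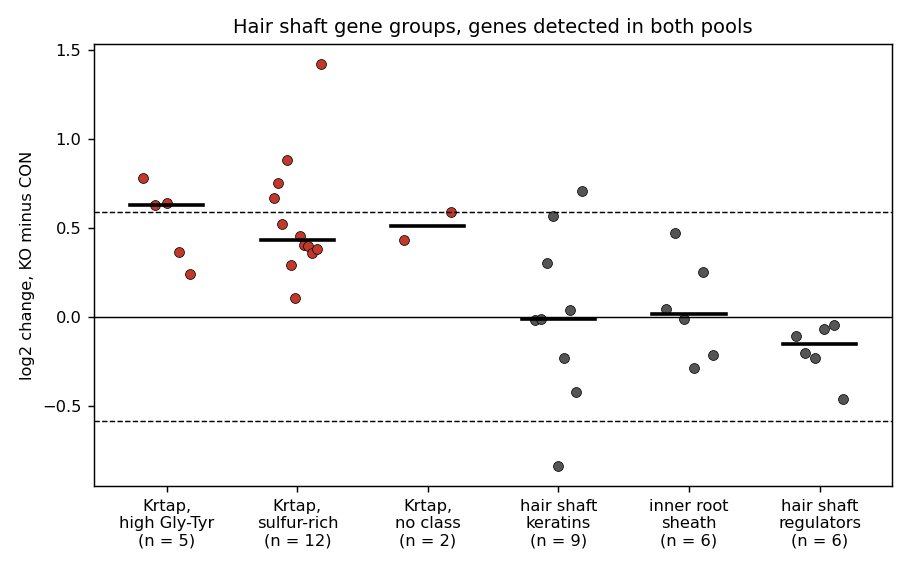
Log2 change (KO minus CON) of genes detected in both pools, 1 point per gene with the median as a bar, for keratin-associated proteins by class (left, red) and for hair shaft keratins, inner root sheath genes and hair shaft regulators (right, grey). The medians of the red groups lie between 0.43 and 0.63, and those of the grey groups between -0.16 and 0.02.

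The amount of follicle tissue in the sheets can differ between pools, and markers of follicle cells are given for that reason. For hair cortex and cuticle 5 of 8 markers were measured, with a summed raw signal of 16220.9 in KO and 12227.3 in CON. After normalization 3 of 5 were higher in KO, against 4 of 9 in the longer hair shaft keratin list above. For the inner root sheath 4 of 5 were measured, with a sum of 26797.2 in KO and 28883.7 in CON and 0 of the 3 detected genes higher in KO, against 3 of 6 in the longer inner root sheath list above. For follicle stem cells and the outer root sheath all 5 were measured, with a sum of 16362.5 in KO and 14238.3 in CON, most of it from Krt15, and 3 of 3 detected genes were higher in KO, by 0.13 to 0.17 on the log2 scale. Some cortex and cuticle markers thus moved with the keratin-associated proteins and others, such as Krt35, did not. Their part in the result was not tested.

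Markers of other cell types moved both ways. The 4 dermal papilla markers were not detected. Of 5 fibroblast markers Col1a2, Col3a1 and Lum were not detected, and the list had a summed raw signal of 1226.8 in KO and 1290.7 in CON. The dim Col1a1, at 173.1 in KO and 202.3 in CON, was 1.78-fold lower in KO, or 1.24-fold in the authors' values. The brighter Dcn, at 613.4 in KO and 646.3 in CON, had a log2 change of -0.16. Skeletal muscle markers were at low signal, with a sum over 4 genes of 771.5 in KO and 600.9 in CON. Of these Myl1 rose 3.12-fold, or 1.64-fold in the authors' values. Myh8 and Acta1, undetected in CON, were at least 1.53-fold and 1.04-fold higher, and Ckm was not detected. The 3 melanocyte markers had a sum of 2802.6 in KO and 3003.3 in CON. Those of T cells (2 measured) summed to 3197.9 in KO and 2793.3 in CON, and those of Langerhans cells (2 measured) to 9278.5 in KO and 8918.8 in CON. Their part in the result was not tested.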

How the data were processed

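Epidermal RNA of 3 mice per genotype was combined into 1 pool, giving 1 array for KO and 1 for CON, grouped by the genotype in the labels. GenomeStudio 2011.1 was used upstream, per the submitters' processing notes. Per the file headers, the deposited non-normalized table holds an average bead intensity (linear) and a detection p-value for each probe. The deposited normalized intensity table has the same detection p-values and sorted signals within 0.3 of each other between arrays, and the series matrix repeats its signals.

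Non-normalized intensities were background-corrected with negative controls inferred from the detection p-values, an offset of 16, quantile normalization and log2 (neqc, limma 3.58.1, R 4.3.3). Later steps used Python 3.11.15, pandas 2.3.3 and matplotlib 3.10.9. Each gene was represented by its brightest probe. The number of arrays limits the precision. Where a gene was undetected in 1 pool, its fold is a lower bound, taken against its own signal there or that array's lowest detected signal, whichever was larger. The steps were tested on simulated data with known folds put only in probes well above background, so that test does not cover dim genes. Every detected member is named, and undetected members are named with the range of their signal. The members and lists were chosen with earlier results of these data known. Composition class by protein sequence was planned and not run, since no protein sequence was used here. Alternatives were other scalings, offsets, detection limits and probe choices.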

Additional observations from a re-analysis of the deposited data

How the results depend on the processing

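Direction held for the 10 genes detected in both pools under every scaling run, and of 12 genes detected in at least 1 pool 11 were higher in KO under each. The number that rose depended on the processing. It was 3 by the rule, 1 in the authors' normalized values, 1 without background correction, 5 at a detection p-value under 0.05 or with no filter, 0 at 2-fold and 7 with the RefSeq names added (a choice made after the data were seen). None fell under any of these. Among all genes 275 of 8868 rose by the rule, 48 of 8868 in the authors' values and 50 of 8868 without background correction. At a detection p-value under 0.05 it was 342 of 9961, and with no filter 350 of 17888. The file's members counted were 12 in the first 3 settings, 16 under 0.05 and 21 with no filter. No such count over all genes is given at 2-fold. The median log2 change of detected members stayed between 0.31 and 0.43. That of subfamily 5 was 0.36, and 0.22 in the authors' values, 0.23 without background correction and 0.061 with no filter. Among all genes 477 passed the rule, against 63 in the authors' values, 73 without background correction, 159 with an offset of 50 and 299 when detected in both pools. The share of calls that were higher was 57.7%, against 76.2% in the authors' values and 68.5% without background correction. Of 166 single-gene values under alternatives 2 moved by over 1.5-fold, both of Krtap9-3, and 0 reversed. Many of the 166 could not move, since detection limits and probe choice leave the value of a gene with 1 probe unchanged. Only the other scalings and the other offset could change a value. Leaving out genes with near-identical probes was not run, since no probe sequences were used here. No paired analysis was possible because each genotype is 1 pool. Genes near background are limited by their signal.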
